A study of Mus musculus with 12 samples.

Results

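The genes described here encode the receptor chains for interleukin-3 (IL-3), granulocyte-macrophage colony-stimulating factor (GM-CSF) and interleukin-5 (IL-5): Il3ra, Csf2ra, Csf2rb, Csf2rb2 and Il5ra. They were taken by symbol from the table of 32227 genes, which held all 5, and all 5 passed the filter on low counts that left 15083 genes for testing. Every library came from C57BL/6J WT mice, with no agent given. The 12 libraries formed 4 groups of 3: basophil progenitors (BaPs, sorted as CLEC12A-high CD34+ cells), pre-basophils (titled BM immature basophil, sorted as CLEC12A-high CD9-low CD34- cells), and mature basophils (CLEC12A-low CD9-high CD34- cells) from the bone marrow (BM) and from the spleen. Each library was a pool of cells from several animals, all in a single experiment, so the tests of levels below measure the spread between pools. Age and sex are not given in the sources used here. BaPs and pre-basophils are called CLEC12A-high below, after the surface protein that both gates required.

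Each of these 3 cytokines is bound by its own alpha chain, which has a short intracellular tail, and the signal is carried by a shared beta chain. Il3ra, Csf2ra and Il5ra encode the alpha chains for IL-3, GM-CSF and IL-5. Csf2rb encodes the beta common chain, which serves all 3 cytokines and recruits the kinase JAK2 and the transcription factors STAT5A and STAT5B. Mice carry an additional copy, Csf2rb2, whose product works with the IL-3 alpha chain only. IL-3 is the main growth and survival cytokine of basophils, and basophils grown from bone marrow in culture depend on it.

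The genes lie on 4 chromosomes (GENCODE M21 annotation of GRCm38). Il3ra spans chr14:14346275-14356011 on the plus strand, Csf2ra chr19:61223957-61228429 on the minus strand and Il5ra chr6:106710357-106749037 on the minus strand. The beta chain genes are neighbours on chromosome 15, with Csf2rb2 at chr15:78282507-78305721 on the minus strand and Csf2rb at chr15:78325752-78353847 on the plus strand, 20030 bases apart and transcribed away from each other. Their coding sequences of 2691 bases (Csf2rb) and 2637 bases (Csf2rb2) were identical at 95.21% of aligned bases, with 66 gap positions left out. Because a read from a stretch that is identical in both cannot be placed on either gene, the pair is given both apart and as a sum. The window of 150 aligned bases with the most differences, 25 in all, is shown to mark where the genes can be told apart. It runs over exons 5 and 6 of Csf2rb (coding bases 300 to 449, chr15:78338889-78340492 with the intron between) and exons 4 and 5 of Csf2rb2 (coding bases 303 to 452, chr15:78292817-78294442), and capitals mark the differing bases.
Csf2rb: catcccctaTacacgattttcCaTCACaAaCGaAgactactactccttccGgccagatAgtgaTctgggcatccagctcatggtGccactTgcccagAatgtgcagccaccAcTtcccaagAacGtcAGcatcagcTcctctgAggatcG
Csf2rb2: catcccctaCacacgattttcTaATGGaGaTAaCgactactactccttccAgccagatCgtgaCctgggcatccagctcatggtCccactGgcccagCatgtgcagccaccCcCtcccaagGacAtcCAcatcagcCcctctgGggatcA

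At the other extreme, the longest run without a difference was 242 bases long, at coding bases 2083 to 2324 in both genes (exon 15 of Csf2rb, chr15:78348577-78348818, and exon 14 of Csf2rb2, chr15:78284630-78284871). It is shown as the stretch in which a read carries no information on its gene.
Csf2rb and Csf2rb2: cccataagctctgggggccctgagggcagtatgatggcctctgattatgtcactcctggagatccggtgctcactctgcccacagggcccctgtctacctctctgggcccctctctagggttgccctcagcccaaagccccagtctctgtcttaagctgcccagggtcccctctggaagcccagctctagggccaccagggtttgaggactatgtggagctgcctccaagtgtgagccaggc

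Over the whole annotated transcripts, 18.39% of the 50-base windows of Csf2rb and 19.02% of those of Csf2rb2 occurred in the partner gene. With 150-base windows the shares were 3.473% and 3.594%. Il3ra and Csf2ra shared no 50-base window with any other gene, and Il5ra shared 1.049% of its 50-base windows and none of 100 bases.

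Library totals ran from 3596108 to 8151030 counts. Levels are given as CPM, counts scaled to a common library total after TMM normalization. All 8 basophil markers, among them Mcpt8, Prss34 and the IgE receptor genes Fcer1a and Ms4a2, were detected in every library. BaP replicate 3 stood apart from the rest: it had 26743 detected genes against 21911 to 24704 in the other libraries, a summed T and NK cell marker level of 546.9 CPM against 5.26 to 47.2 CPM, and a summed basophil marker level of 24957 CPM against 62475 and 67477 CPM in the other BaP libraries. Results that turn on it are given with and without it.

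Both beta chain genes rose from the BaP stage to the mature stage, whereas the alpha chains did not follow them. Of the 5 genes, Csf2rb and Csf2rb2 were lower and Csf2ra was higher in the CLEC12A-high groups than in the mature groups (edgeR quasi-likelihood test, adjusted p under 0.05). Il3ra and Il5ra did not pass the test. Among all genes tested, 57.2% were called in this comparison, 31.0% as higher and 26.2% as lower (under scaling by library size alone, 75% of the calls were higher, against 54.2%). A call for 3 of 5 genes is close to that background. The 6 and 6 libraries did not overlap for Csf2rb and Csf2rb2, a separation that 28.3% of all tested genes showed.

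**Figure D1:**
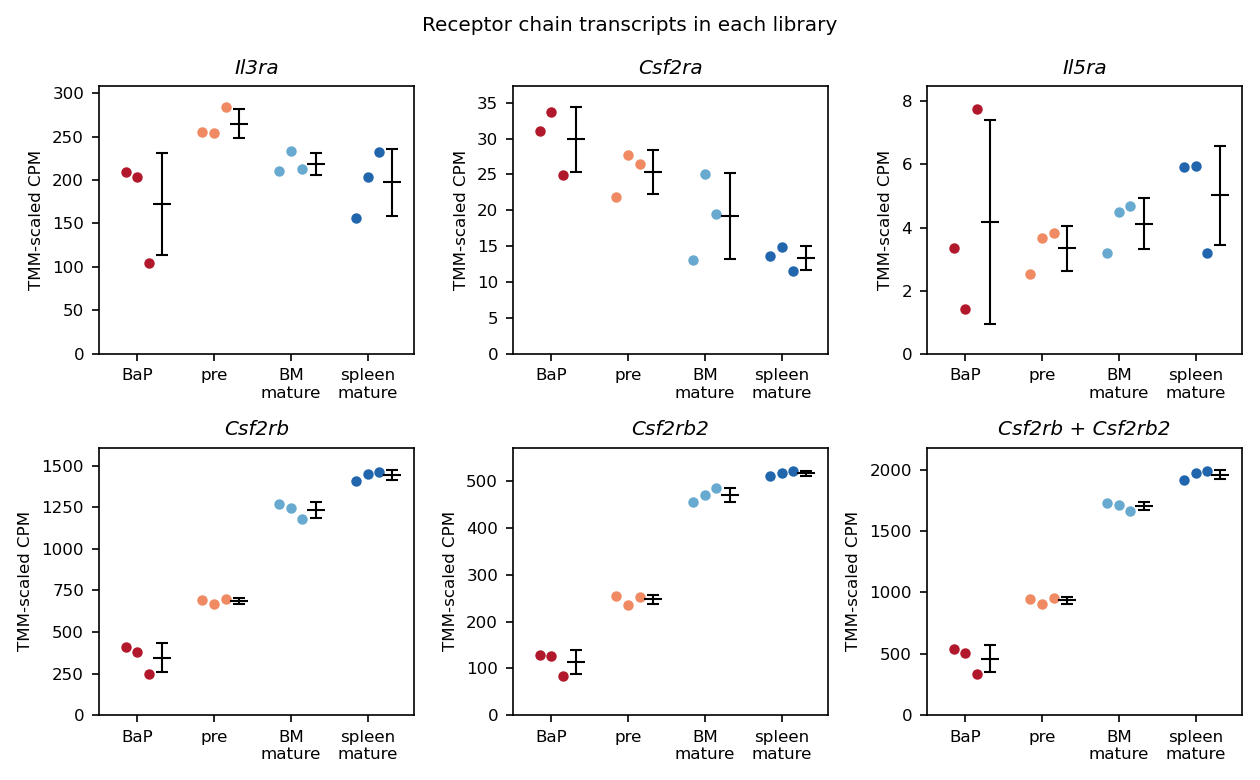
TMM-scaled CPM (y axis, from 0, a separate scale for each gene) of each receptor chain and of the summed beta chains in the 3 libraries of each group (x axis, replicates 1 to 3 from left to right), with the mean and SD in black. Csf2rb, Csf2rb2 and their sum step up from BaP to pre-basophil to mature basophil without overlap, while Csf2ra runs from 29.9 CPM in BaPs down to 13.3 CPM in spleen mature basophils and Il3ra is highest in pre-basophils. Between 2 groups, 25.1% to 59.9% of all tested genes showed no overlap.

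Il3ra, the IL-3 binding chain, was the alpha chain with the highest level per kilobase of transcript in all 4 groups. Its CPM was 209, 203 and 104 in BaP replicates 1 to 3, 255, 255 and 285 for pre-basophils, 210, 233 and 212 for BM mature basophils, and 156, 204 and 233 for spleen mature basophils. The pre-basophil libraries were the highest and overlapped with no other group, BaP replicate 3 was the lowest of all, and the BaP and spleen libraries overlapped. Of all tested genes, 25.1% separated pre-basophils from BaPs without overlap, 47% from BM mature and 59.7% from spleen mature basophils. The group means were 172 ± 59.1 CPM (SD, n = 3) in BaPs, 265 ± 17.0 for pre-basophils, 219 ± 12.9 for BM mature and 197 ± 38.6 for spleen mature basophils. None of the pairwise differences passed: the one with the smallest p, BaP against pre-basophil, had a log2 fold change of -0.63 ± 0.22 (SE) and an adjusted p of 0.0934 in the edgeR test, and the test over all 4 groups gave an adjusted p of 0.0975. Without BaP replicate 3, the difference between BaPs and pre-basophils was -0.35 on the log2 scale (adjusted p = 0.0927), the test over all 4 groups passed (adjusted p = 0.0183), and Il3ra was higher in pre-basophils than in spleen mature basophils (log2 fold change 0.43, adjusted p = 0.00505). That last difference was 0.42 ± 0.21 with all libraries (adjusted p = 0.122), and it also passed under scaling by library size alone (adjusted p = 0.0346), without a filter (0.0253) and with only the groups compared (0.00896). The test over all 4 groups passed as well without a filter (adjusted p = 0.000989) and without BaP replicate 1 (0.0476). Basophil markers were also low in BaP replicate 3, as given above, and their part in its low Il3ra level was not tested. In bulk libraries, fewer cells of a type and less RNA per cell cannot be told apart.

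Csf2ra, the GM-CSF binding chain, was measured at a lower level per kilobase than Il3ra in every group and ran the opposite way to the beta chains. Its CPM was 31.1, 33.7 and 24.9 for BaPs, 21.8, 27.8 and 26.4 for pre-basophils, 13.0, 25.0 and 19.5 for BM mature basophils, and 13.6, 14.9 and 11.6 for spleen mature basophils. These values rest on 41 to 257 counts per library. The spleen libraries lay below every CLEC12A-high library, whereas neighbouring groups within the bone marrow overlapped. Of all tested genes, 59.9% separated spleen mature basophils from BaPs and 59.7% from pre-basophils. Csf2ra was higher in BaPs than in spleen mature basophils (log2 fold change 1.16 ± 0.21, edgeR adjusted p = 0.000359) and higher in pre-basophils than in spleen mature basophils (0.93 ± 0.21, adjusted p = 0.00277). It was also higher in BaPs than in BM mature basophils (0.62 ± 0.21, adjusted p = 0.0267), a call lost when any of 4 libraries was left out, with log2 fold changes of 0.43 to 0.62 and adjusted p-values of 0.0625 to 0.112. Those libraries were BaP replicates 1 and 2 and BM mature replicates 1 and 3. No step between neighbouring groups passed: BaP against pre-basophil had an adjusted p of 0.565, pre-basophil against BM mature 0.192 and spleen against BM mature 0.140. For CLEC12A-high against mature the log2 fold change was 0.77 ± 0.15 (adjusted p = 0.000514). Other cells of the marrow carry this chain as well. All 8 neutrophil markers were detected in the 6 CLEC12A-high libraries, and 7 or 8 of them in each mature library. Their summed level was 174 to 1914 CPM against 37.3 to 69.1 CPM in the mature libraries. In replicates 1 to 3 the sum was 174, 720 and 1914 CPM for BaPs and 380, 855 and 1900 CPM for pre-basophils. The part of these markers in the Csf2ra difference was not tested.

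Il5ra, the IL-5 binding chain that is best known from eosinophils, was near the lower limit of what these libraries could measure. BaP replicates 1 to 3 held 14, 6 and 80 counts of it, pre-basophils 9, 15 and 24, BM mature basophils 10, 18 and 25, and spleen mature basophils 37, 36 and 24. Scaled to depth, these were 1.41 to 7.75 CPM in BaPs and 2.52 to 5.94 CPM in the other 9 libraries. The BaP group held both the lowest and the highest library, so it overlapped with every other group. In the edgeR test over all 4 groups the adjusted p was 0.730, and no pairwise comparison passed. The result turns on BaP replicate 3: without it, Il5ra was lower in BaPs than in spleen mature basophils (log2 fold change -1.04, adjusted p = 0.0401, against -0.15 and 0.798 with it) and lower in the CLEC12A-high groups than in the mature groups (-0.67, adjusted p = 0.0439, against -0.22 and 0.584). The 8 eosinophil markers, all detected in 4 libraries including this one, summed to 216 CPM in it against 40.5 to 109 CPM in the other 11. Epx, the gene for eosinophil peroxidase, had 72 counts there against 0 to 8 elsewhere, whereas Siglecf, an eosinophil surface lectin, had 165 against 54 to 453. The summed ranges were 40.5 to 216 CPM in BaPs, 52.3 to 61.2 for pre-basophils, 64.9 to 109 for BM mature and 90.7 to 101 for spleen mature basophils, and their part in the Il5ra counts was not tested.

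Csf2rb, the signalling chain shared by the 3 cytokines, was measured in every library with at least 1617 counts. Its CPM was 408, 381 and 249 for BaPs, 694, 669 and 699 for pre-basophils, 1273, 1247 and 1181 for BM mature basophils, and 1409, 1454 and 1466 for spleen mature basophils. The groups followed each other without overlap, BaP lowest and spleen highest. Of all tested genes, 25.1% separated BaPs from pre-basophils and 47% pre-basophils from BM mature basophils. For spleen against BM mature the share was 33.7%. Csf2rb was 1.99-fold lower in BaPs than in pre-basophils (log2 fold change -0.99 ± 0.15, edgeR adjusted p = 0.00178) and 1.79-fold lower in pre-basophils than in BM mature basophils (-0.84 ± 0.15, adjusted p = 0.000908). Spleen and BM mature basophils, although their libraries did not overlap, differed by a log2 fold change of 0.23 ± 0.15 that did not pass (adjusted p = 0.370). From the lowest to the highest group, BaP against spleen mature, the difference was 4.18-fold (-2.06 ± 0.15, adjusted p = 1.81e-07). Without BaP replicate 3, the lowest library, the BaP to pre-basophil difference was -0.79 (adjusted p = 3.46e-05).

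Csf2rb2, the IL-3-specific copy found in mice, followed the same course at a lower level per kilobase. Its CPM was 129, 127 and 83.9 for BaPs, 254, 236 and 253 for pre-basophils, 456, 470 and 486 for BM mature basophils, and 512, 517 and 523 for spleen mature basophils. Again no 2 groups overlapped, the shares of all genes between neighbouring groups being those given for Csf2rb. It was 2.20-fold lower in BaPs than in pre-basophils (-1.14 ± 0.14, edgeR adjusted p = 0.000558), 1.90-fold lower in pre-basophils than in BM mature basophils (-0.93 ± 0.14, adjusted p = 0.000307), and differed between spleen and BM mature basophils by 0.14 ± 0.14 (adjusted p = 0.583). In the order of levels of both genes, only these mature groups were neighbours that did not differ beyond the test. The difference between BaPs and spleen mature basophils was 4.59-fold (-2.20 ± 0.15, adjusted p = 6.97e-08).

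The sum of the pair, which does not depend on how reads were divided between them, gave the same order. Summed CPM was 537, 508 and 333 for BaPs, 948, 905 and 952 for pre-basophils, 1729, 1717 and 1666 for BM mature basophils, and 1921, 1971 and 1989 for spleen mature basophils. All libraries of a group lay above all libraries of the group before it, a separation to which the same shares of all genes apply. Markers of other cells differed between these groups too, with all 8 of each list detected in every mature library. Monocyte and macrophage markers summed to 206 to 248 CPM in the mature libraries against 78.8 to 106 CPM in pre-basophils and 37.0 to 321 CPM in BaPs, and B cell markers to 202 to 351 CPM in spleen against 37.9 to 53.7 CPM in BM mature basophils, 36.3 to 49.1 in pre-basophils and 35.1 to 184 in BaPs. Of the monocyte and macrophage list, Ccr2 had the most counts in each mature library (553 to 1286, against 229 to 466 in pre-basophils). Adgre1 was also higher there (17 to 122 against 4 to 14 counts). Csf1r went the other way (4 to 14 against 11 to 37 counts). The part of these markers in the beta chain differences was not tested. In the edgeR model with the pair as a single row, the BaP to pre-basophil difference was 2.04-fold (-1.03 ± 0.15, adjusted p = 0.00135) and the pre-basophil to BM mature difference 1.82-fold (-0.87 ± 0.15, adjusted p = 0.000691). Spleen against BM mature was 0.20 ± 0.15 (adjusted p = 0.420). CLEC12A-high against mature was 2.79-fold lower (-1.48 ± 0.11, adjusted p = 6.36e-08).

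**Figure D2:**
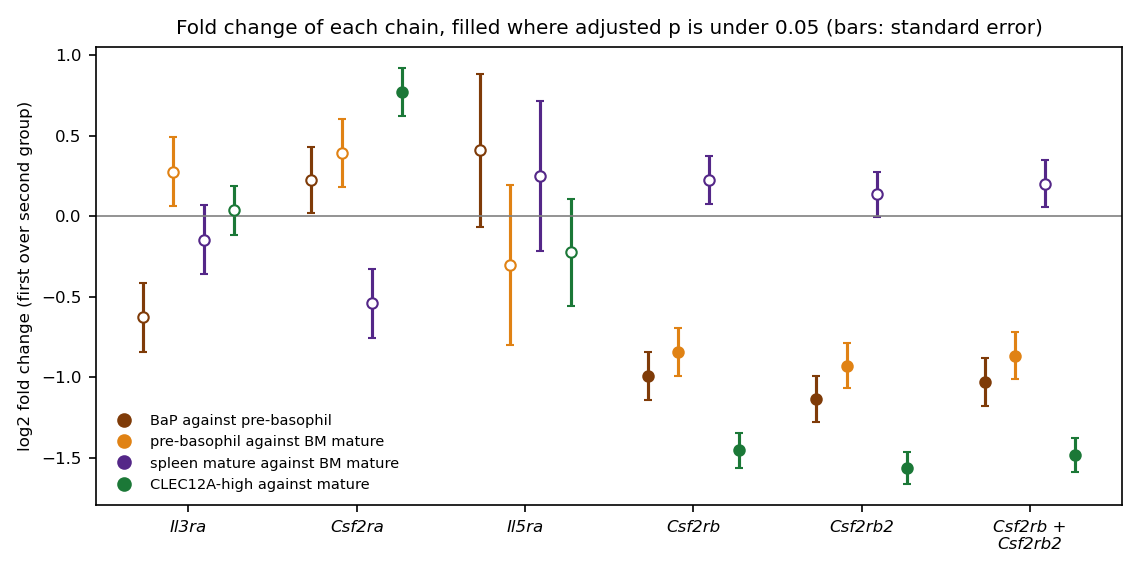
Log2 fold change (y axis) of each chain and of the summed beta chains (x axis) in 4 comparisons from the edgeR model, with the standard error as bars and filled points where the adjusted p was under 0.05. The beta chain genes are filled and below 0 in the bone marrow steps and in CLEC12A-high against mature, from -0.84 to -1.56, and Csf2ra is filled in the last of these only, at 0.77.

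Counted over the comparisons, 2 of the 5 genes were called between BaPs and pre-basophils, where 7.08% of all tested genes were called, and the same 2, Csf2rb and Csf2rb2, between pre-basophils and BM mature basophils, where 27.3% were. None was called between spleen and BM mature basophils (7.83% of all genes), where the unadjusted p was under 0.05 for Csf2ra alone (0.0252). DESeq2, limma-voom and each other setting tried for that comparison also called none of the 5. The comparisons over a longer distance each called 3 genes, Csf2ra as higher and the beta chains as lower: BaP against BM mature (background 45.0%), BaP against spleen mature (54.5%) and pre-basophil against spleen mature (45.7%). In the test over all 4 groups Csf2ra, Csf2rb and Csf2rb2 passed, against 57.8% of all genes.

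Compared per kilobase of annotated transcript, the chains changed rank. This scale assumes that reads cover each transcript evenly, which was not tested. In BaPs, Il3ra stood at 74.4 ± 25.5 CPM per kilobase (SD, n = 3) and Csf2rb at 70.6 ± 17.3, a difference within the spread of the libraries. That closeness rests on the division by length, since mean CPM in BaPs was 172 for Il3ra and 346 for Csf2rb. Il3ra and Csf2rb2 changed order on CPM too, with means of 172 and 113 in BaPs against 197 and 517 in spleen mature basophils. In spleen mature basophils Csf2rb stood at 294 ± 6.14, Csf2rb2 at 109 ± 1.21 and Il3ra at 85.3 ± 16.7. Csf2ra lay below Il3ra in every group, from 16.2 ± 2.45 CPM per kilobase in BaPs to 7.21 ± 0.900 for spleen mature basophils. Il5ra was the lowest of the 5, at 0.933 ± 0.200 to 1.40 ± 0.443.

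Because the alpha chains bind ligand and the beta chains signal, the proportions between them were examined within each library, where scaling between libraries cancels. They are ratios of counts, not corrected for transcript length. Il3ra counts were 31.2% to 40.0% of the summed beta chain counts in BaPs, 26.9% to 29.9% for pre-basophils, 12.1% to 13.6% for BM mature and 8.13% to 11.7% for spleen mature basophils. No 2 of these ranges overlapped. On the log2 scale the ratio was 1.51 higher in the 6 CLEC12A-high libraries than in the 6 mature libraries (exact two-sided permutation test, p = 0.00216, the smallest that 924 splits allow, adjusted over 5 ratios 0.00541). Permuted only within replicate numbers, a replicate block that allows 216 splits and no p below 0.00926, its adjusted p was 0.0231. Both permutations treat BaP and pre-basophil libraries as replicates of a single side, and likewise both mature groups. Since the ratio also differed between the groups of a side, these p-values do not measure the spread between pools alone. All ratios below were tested with the same sides. Csf2ra was 6.63% ± 0.844 of the summed beta chain counts in BaPs (SD, n = 3), 2.71% ± 0.388 for pre-basophils, 1.13% ± 0.354 for BM mature and 0.681% ± 0.0895 for spleen mature basophils. All 6 CLEC12A-high libraries lay above all 6 mature libraries, with a log2 difference of 2.30 (exact permutation test, adjusted p = 0.00541, and 0.0231 within replicate numbers). Both differences follow from the levels given above and are no separate evidence. In CLEC12A-high against mature these were -1.48 for the summed beta chains, 0.037 for Il3ra and 0.77 for Csf2ra on the log2 scale.

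The ratio of the GM-CSF to the IL-3 binding chain moved less. Csf2ra counts were 14.8% to 23.9% of Il3ra counts in BaPs, 8.53% to 10.9% for pre-basophils, 6.22% to 10.7% for BM mature and 4.97% to 8.71% for spleen mature basophils. BaPs lay above the other groups, which overlapped with each other. The CLEC12A-high against mature difference was 0.79 on the log2 scale (exact permutation test, adjusted p = 0.0325). It did not pass within replicate numbers (adjusted p = 0.0579) and missed the threshold without BaP replicate 3 (0.61, adjusted p = 0.0613), without BM mature replicate 1 (0.73, 0.0676) and without spleen mature replicate 3 (0.66, 0.0649). Il5ra over the summed beta chains differed by 1.07 (adjusted p = 0.0325), which fell to 0.63 without BaP replicate 3 (adjusted p = 0.0703) and did not pass within replicate numbers (adjusted p = 0.0579). It also missed the threshold when BM mature replicate 1, 2 or 3 or spleen mature replicate 3 was left out (0.95 to 1.11, adjusted p up to 0.0779).

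The proportion of the beta chain copies to each other varied little. Csf2rb2 counts were 32.8% ± 1.06 of Csf2rb counts in BaPs (SD, n = 3), 36.0% ± 0.705 for pre-basophils, 38.2% ± 2.68 for BM mature and 35.9% ± 0.416 for spleen mature basophils. BaP libraries, from 31.7% to 33.7%, lay below all others. CLEC12A-high and mature libraries overlapped and differed by -0.11 on the log2 scale (exact permutation test, p = 0.0519, adjusted 0.0519), a difference that passed when pre-basophil replicate 1 or 3 or spleen mature replicate 2 was left out (adjusted p = 0.0216, 0.0368 and 0.0476). Reads from the shared stretches shown above enter this ratio in an unknown way, the assignment of reads that match both genes being not given in the sources used here.

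**Figure D3:**
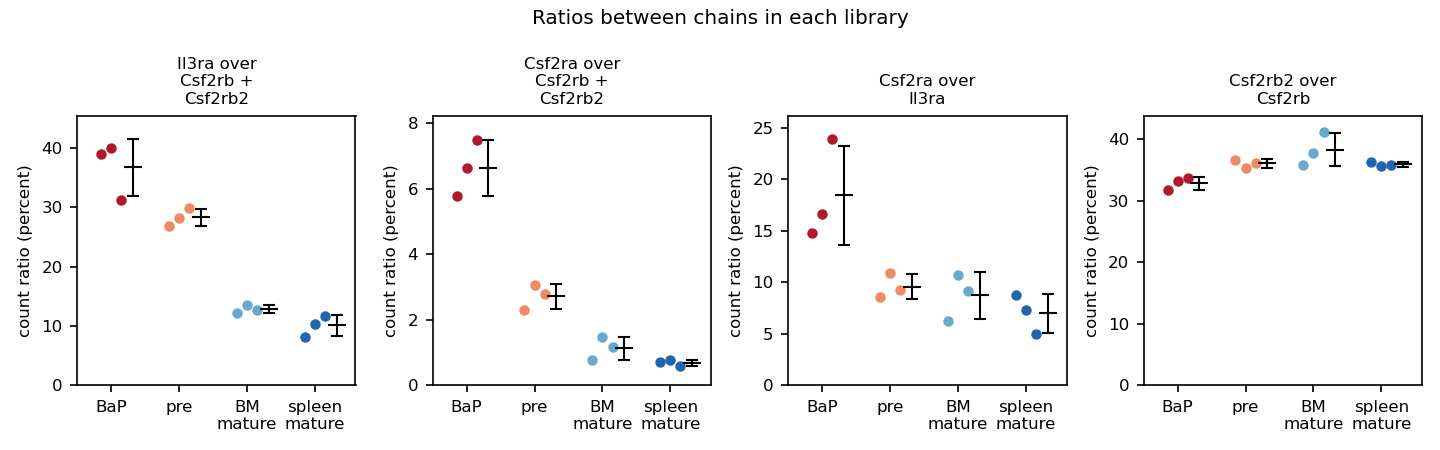
Count ratios in percent (y axis, from 0) for 4 pairs of chains in the 3 libraries of each group (x axis), with the mean and SD in black. Both alpha to beta ratios are lower in all mature than in all CLEC12A-high libraries, with group means from 36.8% for BaPs to 10.1% in spleen for Il3ra and from 6.63% to 0.681% for Csf2ra, while Csf2rb2 over Csf2rb stays between 31.7% and 41.1%.

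The course of each gene over the 12 libraries was compared with 8439 genes of at least 10 CPM on average, by Pearson's r of log2 CPM. These r are descriptions, since libraries of a group share their cell type, and they are given with BaP replicate 3 included. Ranked by Spearman's rho instead, each of the 5 genes kept 0 to 2 of its closest genes. The gene closest to Csf2rb was Csf2rb2 (r = 0.997), which shares sequence with it. Among the genes closest to it was also Cyp4f18, which metabolises leukotriene B4 (r = 0.993). Those closest to Csf2rb2 included Aqp9, a channel for glycerol and water (0.994), and Cyp4f18 (0.993). Mean CPM of Cyp4f18 was 245 for BaPs, 532 for pre-basophils, 912 for BM mature and 1113 for spleen mature basophils. The most opposite course to both beta chains was that of Bcl2, the founding anti-apoptotic family member, which went from 108 CPM in BaPs through 43.9 and 21.8 to 18.7 for spleen mature basophils (r = -0.987 and -0.988).

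Csf2ra was most like Mtmr9, a myotubularin family member (r = 0.965), Mrpl20, a mitochondrial ribosomal protein (0.954), and Rwdd4a (0.949), and least like Ing3, a chromatin reader (-0.966). Il3ra was most like Pafah2, which hydrolyses oxidised phospholipids (0.955), Arf5, a small GTPase of vesicle transport (0.950), and Lat, an adaptor of immune receptor signalling (0.939), and least like Ifi203, an interferon-inducible gene (-0.916). Il5ra, with few counts, was most like Csnk1g3, Elmo1 and Gm4759 (0.956, 0.956 and 0.840), and least like Ndst2, an enzyme of heparan sulfate synthesis (-0.876). Between the 5 genes themselves, r was -0.775 for Csf2ra and Csf2rb, 0.380 for Il3ra and Csf2rb, and 0.0833 for Il3ra and Csf2ra.

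The promoter of Csf2rb2 is shown because its gene rose at both bone marrow steps. The 250 bases before its RefSeq start (GRCm38.p6, chr15:78305722-78305971, minus strand, 5′ to 3′) were searched on both strands for the letters of a STAT motif (TTCNNNGAA), a GATA motif (AGATAA), a C/EBP motif (TTGCNNAA) and a PU.1 motif (GAGGAA), and matches are in capitals. The RefSeq table held entries for Il3ra, Csf2ra, Csf2rb2 and Il5ra.
Csf2rb2: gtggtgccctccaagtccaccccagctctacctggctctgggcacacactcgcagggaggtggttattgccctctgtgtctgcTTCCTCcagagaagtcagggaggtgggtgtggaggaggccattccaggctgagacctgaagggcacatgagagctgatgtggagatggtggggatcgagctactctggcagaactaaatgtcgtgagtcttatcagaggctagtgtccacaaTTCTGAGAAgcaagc

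With the base before the start as position -1, a STAT match lay at -15 to -7 and a PU.1 match on the opposite strand at -167 to -162, with no overlap. Among 32851 promoter windows of the same length, 7.02% held the STAT letters, 23.3% the PU.1 letters, 9.99% the GATA letters and 9.56% the C/EBP letters. The promoters of Il3ra, Csf2ra and Il5ra, searched alike, held 1 C/EBP match, 2 PU.1 matches and 1 GATA match, in that order. PU.1 letters thus also lay before Csf2ra, which ran the opposite way to Csf2rb2. A match is a description of the letters only.

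The ligands were hardly measurable, and Il3 was not analysed here. Csf2, which encodes GM-CSF, had 6 counts over all 12 libraries, at most 3 in any of them, and none in the 3 BM mature libraries, where a count of 0 allows up to 3 counts per library, at most 0.955 CPM. Il5 had 53 counts in all, from 9 for BM mature to 21 for spleen mature basophils, with at most 11 per library. Neither passed the filter, so neither was tested.

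Other receptors of the haematopoietin family were compared as a list of 24, of which 17 passed the filter. In CLEC12A-high against mature, 3 were called lower and 1 higher, against 26.2% and 31.0% of all genes tested, and their median log2 fold change was -0.005 against 0.001 over all genes. Il7r, the alpha chain of the IL-7 and TSLP receptors, was lower in the CLEC12A-high groups (-2.07 ± 0.32, edgeR adjusted p = 7.42e-05), at 21.8 ± 22.2 CPM in BaPs and 36.7 ± 8.31 for pre-basophils against 143 ± 13.7 for BM mature and 106 ± 8.69 for spleen mature basophils (SD, n = 3). Il6ra, the IL-6 receptor, was lower too (-1.41 ± 0.29, adjusted p = 0.000867), and Il27ra, the IL-27 receptor, was higher (0.91 ± 0.18, adjusted p = 0.000579). Lifr passed narrowly (-0.68 ± 0.28, adjusted p just under the threshold) and in only 5 of 20 alternatives. Without BaP replicate 3, the counts of this list were 7 lower and 3 higher, with a median of -0.61. Over all genes, 64.9% were then called, with a median of -0.018. T and NK cell markers were high in that library, as given above, and their part in this list was not tested. The median of the list also changed sign under scaling by library size alone (0.27, against 0.261 over all genes).

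Of 14 genes for intracellular partners of the beta chain, all tested, 9 were lower and 1 was higher in the CLEC12A-high groups (26.2% and 31.0% of all genes tested), with a median of -0.50 against 0.001 over all genes. Jak2, the kinase bound to the beta chain, stood at 98.7 ± 2.08 CPM in BaPs, 166 ± 29.3 for pre-basophils, 303 ± 49.8 for BM mature and 540 ± 23.8 for spleen mature basophils (SD, n = 3; CLEC12A-high against mature -1.66 ± 0.10, edgeR adjusted p = 1.78e-08). Pik3cd, a phosphoinositide 3-kinase catalytic subunit, had a log2 fold change of -1.23 ± 0.20 (adjusted p = 0.000127) and Gab2, an adaptor downstream of IL-3, of -1.09 ± 0.09 (adjusted p = 1.9e-07). The smallest of the 9 differences below 0 were those of Ywhaz, a 14-3-3 protein (-0.44 ± 0.09, adjusted p = 0.00119), and of Stat5a (-0.42 ± 0.12, adjusted p = 0.0102). Under scaling by library size alone the counts were 7 lower and 2 higher, with Stat5a and Sos1 no longer called and Shc1 called higher. Of all genes, 55.3% were called under that scaling, and 75% of those calls were higher. Ptpn11, the phosphatase SHP-2, was the one called higher (0.33 ± 0.11, adjusted p = 0.0244), in 15 of 20 alternatives. Stat3, Grb2, Shc1 and Pik3r1 did not pass. Without BaP replicate 3 the counts were 11 lower and 2 higher, against 64.9% of all genes called.

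Of 11 negative regulators of the receptor, all tested, 5 were lower and none was higher in the CLEC12A-high groups by edgeR, fewer in all than the 57.2% of all genes called, so the count is not a result about them. Their median was -0.43 (at an unadjusted p under 0.05, also 5 and 0, and by DESeq2 5 and 0). Without BaP replicate 3 the counts were 7 lower and 1 higher, and under scaling by library size alone 3 lower and 2 higher. Of all genes, 64.9% and 55.3% were called in these settings. Socs2 and Socs1, STAT-induced inhibitors of JAK signalling, had log2 fold changes of -1.41 ± 0.31 (edgeR adjusted p = 0.00143) and -1.15 ± 0.25 (adjusted p = 0.00123). Ptpn6, the phosphatase SHP-1, had -0.52 ± 0.07 (adjusted p = 4.05e-05), Sh2b3, an adaptor that restrains JAK2, -0.49 ± 0.18 (adjusted p = 0.0329), and Inpp5d, the lipid phosphatase SHIP-1, -0.43 ± 0.07 (adjusted p = 0.00018). The calls of Sh2b3 and Inpp5d were lost under scaling by library size alone. Cish, a STAT5-induced inhibitor, did not pass (0.39 ± 0.21, adjusted p = 0.120).

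**Figure D4:**
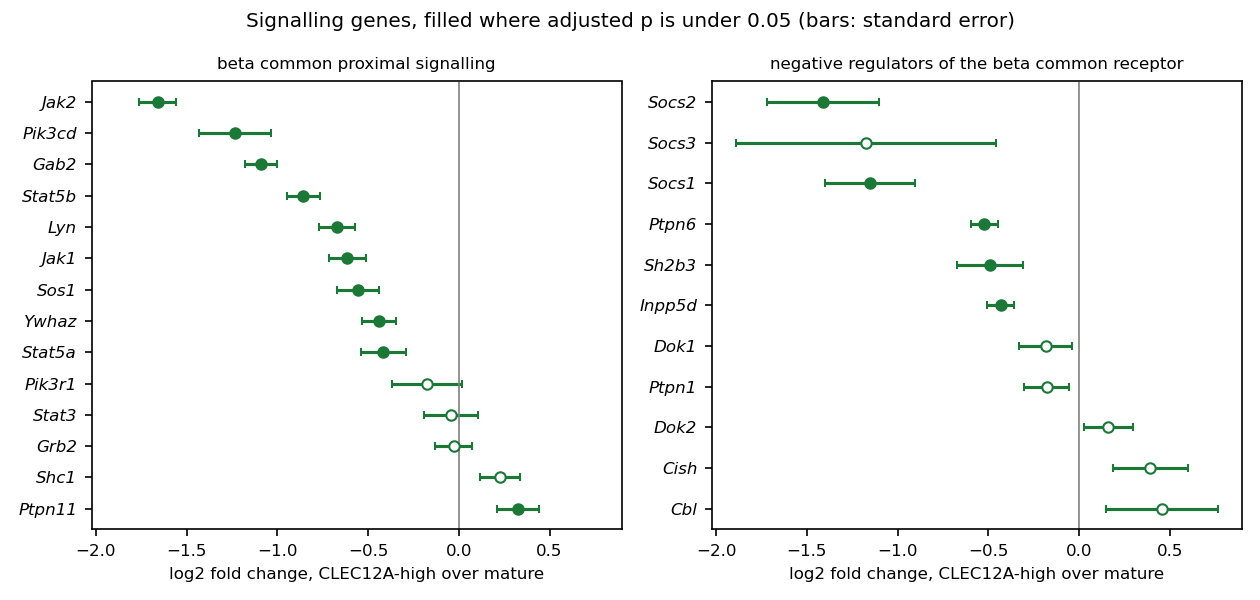
Log2 fold change of CLEC12A-high over mature (x axis) for the genes of the signalling list (left) and of the negative regulator list (right), ordered by value, with the standard error as bars and filled points where the adjusted p was under 0.05. In the signalling list 9 filled points lie below 0 and 1 above, and in the regulator list 5 filled points lie below 0 and none above.

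Among 14 genes known to respond to IL-3 or STAT5, 13 were tested, and 8 were lower and 2 higher in the CLEC12A-high groups (26.2% and 31.0% of all genes tested), with a median of -0.50. Without BaP replicate 3 the counts were 10 lower and 2 higher, and under scaling by library size alone 5 lower and 3 higher. Of all genes, 64.9% and 55.3% were called in these settings. Osm, the cytokine oncostatin M, had a log2 fold change of -1.93 ± 0.13 (edgeR adjusted p = 3.96e-08), at 596 ± 101 CPM in BaPs, 1373 ± 139 for pre-basophils, 4013 ± 154 for BM mature and 2976 ± 849 for spleen mature basophils (SD, n = 3). Id1, an inhibitor of helix-loop-helix factors, had a log2 fold change of -1.52 ± 0.14 (adjusted p = 7.35e-07) and Mcl1, a survival factor of the BCL2 family, of -1.18 ± 0.30 (adjusted p = 0.00434). Myc, a transcription factor of cell growth, had -0.33 ± 0.13 (adjusted p = 0.0487) and passed in 8 of 20 alternatives, with its highest mean in spleen mature basophils (57.5 CPM), followed by BaPs (41.0 CPM), BM mature basophils (18.2 CPM) and pre-basophils (16.1 CPM). Those called higher were Cxcr4, the receptor that retains cells in the marrow (0.86 ± 0.19, adjusted p = 0.00143), and Ccnd3, a cyclin of the G1 phase (0.75 ± 0.10, adjusted p = 1.86e-05). The study had reported more CXCR4 in pre-basophils than in mature basophils of the marrow, for transcript and surface protein. It also reported that IL-3 lowered Cxcr4 expression in basophils cultured from bone marrow, and surface CXCR4 on both stages ex vivo. The part of IL-3 in the difference found here was not tested. The list does not separate genes that IL-3 raises from genes that it lowers.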

How the data were processed

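Per the labels, polyadenylated RNA of sorted cells was amplified as cDNA and sequenced. The deposited values are raw counts per gene, not normalized, and all columns were used. The authors trimmed reads with cutadapt 3.4 and mapped them with Bowtie2 2.4.2 to reference transcripts. The submitters' processing notes name GRCm39 and the study's methods GRCm38, and since the counts carry no coordinates, positions here come from GENCODE M21 on GRCm38. Handling of strand and of reads that match several genes, not given in the sources used here, leaves overlapping or near-identical genes uncertain. No molecular identifiers are described, so PCR copies count as reads, and a limit from a count of 0 (3 counts) covers counting error only.

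Genes were filtered with filterByExpr and scaled by TMM (factors 0.844 to 1.30), and the 12 libraries entered a single quasi-likelihood fit in edgeR 4.0.16 (R 4.3.3), with a coefficient per group, Benjamini-Hochberg adjustment over 15083 genes and a threshold of 0.05. The CLEC12A-high against mature comparison is the mean of BaP and pre-basophil against the mean of both mature groups on the log2 scale. Log2 CPM used a prior count of 2. Ratios between chains were tested by exact two-sided permutation. Script steps were tested on simulated data. Transcript length is that of the longest protein-coding transcript. The members, gene lists and tests were chosen with earlier results of these data known. Named beside the members are, for each, the 3 genes with the highest r and the gene with the lowest, and from each list the called genes with the 3 largest and the 3 smallest fold changes. Some genes that this rule names are not reported here. Sos1, Stat3, Grb2, Shc1, Pik3r1 and Cish were named after their values were seen, as were the single marker genes.

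The labels number replicates alike in every group. Within the bone marrow, same-numbered libraries deviated together (r of deviations from group means 0.125 to 0.262 over 9 pairs of libraries), whereas the 9 pairs with spleen gave 0.000366 to 0.0899. The numbers were thus taken to pair the bone marrow libraries, from the data and not the labels, and a fit with the replicate block was made as an alternative. The block covered all 4 groups, spleen included, as did the permutation within replicate numbers. For the spleen libraries this pairing rests on the numbers in the labels alone. Further alternatives were other scalings (DESeq2 size factors, upper quartile, library size alone), no filter, DESeq2 1.42.0, limma-voom 3.58.1, repeated TMM with a likelihood ratio test after the study's TCC package, only the groups compared, and each library left out. The repeats for the gene lists, and the permutation of ratios within replicate numbers, were chosen after seeing the data.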

Additional observations from a re-analysis of the deposited data

How the results depend on the processing

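With the replicate number as a block, the ratios Il5ra over the summed beta chains (1.07) and Csf2ra over Il3ra (0.79) no longer passed (adjusted p = 0.0579 for both), every call of the 5 genes in edgeR stayed, the number called was 3 in CLEC12A-high against mature and in all 4 groups, and the summed beta chains differed by -1.04 (BaP against pre-basophil), -0.86 (pre-basophil against BM mature) and -1.49 (CLEC12A-high against mature) on the log2 scale. The calls of Csf2rb, Csf2rb2 and their sum kept their direction and their side of the threshold under all alternatives run. Differences of Il3ra and Il5ra that had not passed changed sign under some. Under scaling by library size alone these were Il3ra in BaP against BM mature (0.039) and against spleen mature (0.063), and Il5ra in BaP against spleen mature (0.19) and in CLEC12A-high against mature (0.053). Il3ra in CLEC12A-high against mature was -0.020 with upper-quartile scaling, and Il5ra in BaP against BM mature -0.010 with limma-voom. Leaving out each library in turn, Il3ra ran from -0.28 to 0.0032 in spleen against BM mature, from -0.37 to 0.073 in BaP against spleen mature and from -0.040 to 0.18 in CLEC12A-high against mature. Il5ra ran from -0.51 to 0.77 in BaP against pre-basophil, from -0.81 to 0.48 in BaP against BM mature and from -1.04 to 0.23 in BaP against spleen mature. The ratios ran from 0.63 to 1.26 (Il5ra over the summed beta chains), from 0.61 to 0.91 (Csf2ra over Il3ra) and from -0.12 to -0.075 (Csf2rb2 over Csf2rb), each crossing the threshold. Il3ra passed without a filter in BaP against pre-basophil (-0.63, adjusted p = 0.000632), and with only the groups compared in pre-basophil against BM mature (0.26, adjusted p = 0.0381). In pre-basophil against spleen mature it passed with library size alone (0.52), without a filter (0.41) and with only the groups compared (0.44). Csf2ra in BaP against BM mature missed it with only the groups compared (0.61, adjusted p = 0.0717). The cause was not tested.

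Scaling by library size alone moved the median of all genes by up to 0.432 on the log2 scale (BaP against BM mature) and raised the share of calls that were higher from 39.4% to 79.6% (BaP against pre-basophil), 59.8% to 82.5% (pre-basophil against BM mature), 40.4% to 60.6% (spleen against BM mature), 56.3% to 82.9% (BaP against BM mature) and 54.7% to 73.7% (BaP against spleen mature). Genes called in BaP against pre-basophil numbered 1068, against 1620 with that scaling, 2091 without a filter, 375 with only the groups compared and 382 to 1831 with a library left out. In spleen against BM mature they numbered 1181, against 1796 without a filter, 2340 with only the groups compared and 241 to 2653 with a library left out. Depth limits Il5ra, the ligands and the receptors that did not pass the filter.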
